A study of Mus musculus with 36 samples.

Results

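The 10 genes followed here are known targets that the transcription factor p53 switches on. They were measured across a drug and potassium experiment in mouse breast cancer cells, and are Cdkn1a, Mdm2, Ccng1, Rrm2b, Gadd45a, Bbc3, Trp53inp1, Zmat3, Eda2r and Sesn1. They were chosen by name as textbook targets, with earlier results of these data known, and make up 10 of the 32285 mouse gene IDs counted. RNA was sequenced from the cell lines AT-3, from a mammary tumour of an MMTV-PyMT mouse, in which the mammary tumour virus promoter drives a viral oncogene, and E0771, from a mammary adenocarcinoma. Cells of each line had grown for 24 h in 6-well dishes before a treatment of 24 h with DMSO as vehicle, 10 µM NS11021, 10 µM BMS204352, 40 mM KCl, 40 mM KCl with 10 µM NS11021 or 40 mM KCl with 10 µM BMS204352. Each of the 12 groups held 3 libraries, so that 18 libraries came from each line and 36 in all. NS11021 opens the large-conductance calcium-activated potassium channel BK, and BMS204352 opens BK and KCNQ channels. The labels do not say whether the groups with KCl alone received DMSO, and no group held another salt, so that potassium, chloride and osmolarity cannot be told apart.

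In unstressed cells the p53 protein is kept low by the ubiquitin ligase MDM2 and held inactive by its relative MDM4. DNA damage, ribosome stress and other insults free p53, which then binds paired copies of a short motif and raises a core set of genes in most cell types. Products of these genes stop the cell cycle (Cdkn1a), supply and repair DNA (Rrm2b, Gadd45a), favour cell death (Bbc3, Eda2r, Trp53inp1) and restrain growth signalling (Sesn1). Others bind RNA (Zmat3) and, through Mdm2, return p53 to its low level, and Ccng1 encodes a cyclin. Several are also raised without p53: Gadd45a and Sesn1, for example, answer stress of the endoplasmic reticulum or a lack of nutrients in many cells.

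The promoter sequences show where exact copies of the p53 half-site lie near annotated starts of these genes. RefSeq windows of 300 bases on GRCm38.p6, reaching from 250 bases before to 50 after an annotated start, were found for 7 of the 10 genes and made 11 windows. The p53 half-site consensus of 10 bases, which is its own reverse complement so that both strands are read at once, was found in 5 of the 11 windows and in 8.36% of all 32851 windows of the same length. Only exact matches to the consensus were counted, so pairs in which a half-site has a mismatched base were missed. The first stretch is shown because it alone among the 11 held a pair of exact matches at most 13 bases apart. That arrangement was found in 24 of all windows (0.0731%). It lies just before the first annotated Cdkn1a start at chr17:29090729-29090968, on the plus strand, and its exact matches stand 73 and 51 bases before that start. The bases right after the second match differ from the consensus by their first letter only. The marked pair is therefore not the closest possible one. The window of a later Cdkn1a start, inside the gene at chr17:29093519-29093818, held 0 half-sites. The other stretches are shown to compare single exact matches, which may still have a mismatched half-site beside them. They lie in Gadd45a at chr6:67037428-67037457 (minus strand, within the first bases of the annotated gene), before Mdm2 at chr10:117710925-117710954 (minus strand), before Ccng1 at chr11:40755452-40755481 (minus strand) and, ahead of a second RefSeq start inside the gene, in Sesn1 at chr10:41887256-41887285 (plus strand). Capitals mark the exact matches, and a half-site with a mismatched base stays in lower case.
Cdkn1a: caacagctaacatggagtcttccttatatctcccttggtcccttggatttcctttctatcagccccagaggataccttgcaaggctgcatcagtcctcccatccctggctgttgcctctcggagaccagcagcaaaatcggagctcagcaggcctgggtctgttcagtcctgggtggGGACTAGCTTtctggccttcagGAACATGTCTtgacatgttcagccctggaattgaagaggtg
Gadd45a: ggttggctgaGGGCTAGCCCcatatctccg
Mdm2: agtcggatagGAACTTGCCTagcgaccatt
Ccng1: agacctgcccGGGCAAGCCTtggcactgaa
Sesn1: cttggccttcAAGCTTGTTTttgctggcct
A match is a description of these letters and not of a bound site. The windows without a match, those of Bbc3 and Eda2r, of the later Cdkn1a start and of the first Sesn1 start, say nothing of sites elsewhere. The best known p53 sites of Mdm2, for instance, lie inside its first intron. In the GENCODE annotation of GRCm38 all 10 are protein-coding genes: Cdkn1a at chr17:29090976-29100727, Mdm2 at chr10:117688875-117710758, Ccng1 at chr11:40748552-40755311, Rrm2b at chr15:37923952-37961318 and Gadd45a at chr6:67035096-67037457. The others are Bbc3 at chr7:16308393-16318205, Trp53inp1 at chr4:11156431-11174379, Zmat3 at chr3:32334792-32366014, Eda2r at chrX:97333840-97377216 and Sesn1 at chr10:41809935-41908424.

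Library totals ran from 38.5 to 52.6 M counts for AT-3 and from 31.2 to 47.9 M for E0771, and no pair of libraries was identical. Values are given as counts per M of library total (CPM), and differences as log2 differences from edgeR's quasi-likelihood test, with p-values adjusted by Benjamini-Hochberg within each comparison over all tested genes and a threshold of 0.05. A gene is said to have risen or fallen only where it passed. Where 3 libraries do not overlap 3 others, this is a description that was not counted over all genes. With KCl in AT-3, for example, 5 of the 10 genes did not overlap DMSO and 0 passed. AT-3 libraries held high levels of Krt14 (1258 to 2068 CPM) and Cdh1 (379 to 504 CPM), markers of mammary epithelium, with Krt8 and Krt19 at or below 1.56 CPM. E0771 held Krt8 at 139 to 227 CPM but the other 7 epithelial markers at or below 1.80 CPM, so that Krt8 alone of the 8 was high there. Summed fibroblast markers were at 69.3 to 77.7 CPM in AT-3 DMSO and 291 to 327 CPM in E0771 DMSO, and summed endothelial markers, mostly Eng in E0771, at 2.13 to 2.46 and 201 to 215 CPM. The leukocyte markers Ptprc and Cd3e had 0 counts in AT-3 and at most 6 and 1 in an E0771 library. The replicate 3 libraries of AT-3 BMS204352, AT-3 KCl with BMS204352 and E0771 BMS204352 stand apart from their groups, with a median absolute log2 distance of 0.217, 0.156 and 0.158 from the group over tested genes, and results that rest on them are given with and without them. The third of these is the only one in the E0771 fit, and AT-3 BMS204352 replicate 1 was itself at 0.165. An alternative without the 3 also lowers the spread that the fit shares over all groups of a line. The labels do not say that replicates are separate cultures, so p-values measure the spread between these libraries, which may be technical. In bulk RNA, fewer cells with a transcript and less of it per cell cannot be told apart.

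Under DMSO the order of the 10 genes by level differed between the lines. Per kilobase of exon, Ccng1, which encodes cyclin G1, was the highest of the 10 in AT-3, at 102 ± 0.967 CPM per kb (SD, n = 3). Mdm2 at 25.9 and Cdkn1a at 22.5 CPM per kb followed. Zmat3, Bbc3, Trp53inp1 and Sesn1 came next at 10.5, 8.73, 7.63 and 6.34 CPM per kb, and each of these overlapped the next in its libraries. Eda2r (3.05 CPM per kb), Rrm2b (1.78) and Gadd45a (1.38) were lowest, each below the one before in all libraries. In E0771, Ccng1 (19.0 CPM per kb) and Cdkn1a (17.9) overlapped at the top, and Mdm2 (14.3), Bbc3 (9.20) and Zmat3 (6.99) followed without overlap. Sesn1 (5.84) and Gadd45a (5.28) overlapped, Rrm2b stood at 1.63, and Trp53inp1 (0.168) and Eda2r (0.162) overlapped at the bottom.

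**Figure D1:**
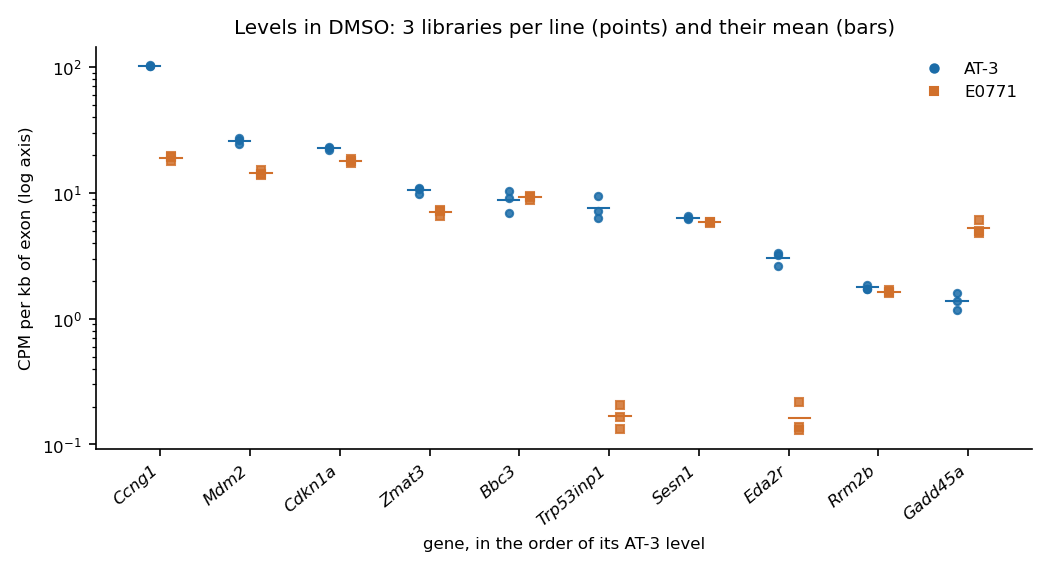
Levels of the 10 p53 target genes in the 3 DMSO libraries of each line, in CPM per kilobase of exon on a log axis; points are libraries and bars the means. Ccng1, Trp53inp1 and Eda2r lie lower in E0771 than in AT-3, and Gadd45a lies higher.

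Between the lines under DMSO, 6 of the 10 genes differed, 1 higher and 5 lower in E0771, where 74.5% of the 15969 genes tested differed (34.1% higher and 40.4% lower). Trp53inp1, a stress protein that promotes p53's death program, was at 46.7, 60.5 and 41.0 CPM in AT-3 and at 1.07, 1.32 and 0.865 CPM in E0771. That is 45-fold lower in E0771 (log2 difference -5.49 ± 0.39 SE, edgeR's quasi-likelihood adjusted p = 8.96e-13), with no overlap. Eda2r, a death receptor of the TNF receptor family, was at 19.6, 18.9 and 15.3 CPM in AT-3 and at 1.29, 0.763 and 0.807 CPM in E0771, 18.6-fold lower (-4.22 ± 0.29, adjusted p = 3.37e-14). Ccng1 was at 360, 362 and 355 CPM in AT-3 and at 68.1, 62.8 and 69.1 CPM in E0771, 5.38-fold lower (-2.43 ± 0.054, adjusted p = 1.21e-28). These 3 genes accounted for the widest gaps between the lines among the members.

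Mdm2 was 1.81-fold lower in E0771 (-0.86 ± 0.11, adjusted p = 1.92e-08) and Zmat3, a zinc finger protein that binds RNA, 1.5-fold lower (-0.58 ± 0.085, adjusted p = 2.24e-07). Gadd45a, which binds PCNA and takes part in growth arrest and DNA repair, was the one member higher in E0771: its libraries were at 2.07, 2.81 and 2.42 CPM in AT-3 and 8.51, 10.7 and 8.80 CPM in E0771, a difference of 3.83-fold (1.94 ± 0.26, adjusted p = 5.93e-08). The differences of Cdkn1a (-0.33), Rrm2b (-0.12), Sesn1 (-0.12) and Bbc3 (0.07) did not pass. Cdkn1a passed without the 3 libraries that stand apart (adjusted p = 0.000354). Trp53 itself was at 290 ± 9.96 CPM in AT-3 and 255 ± 5.54 CPM in E0771 (SD, n = 3), a log2 difference of -0.18 (adjusted p = 0.0328) that no longer passed without AT-3 DMSO replicate 1 or 3 or E0771 DMSO replicate 3 (adjusted p = 0.0841, 0.0700 and 0.0644). Mdm4 was also lower in E0771 (-0.43, adjusted p = 3.39e-07).

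In E0771, both channel openers given alone raised p53 target genes and lowered none of the 10. NS11021 raised 4, Mdm2, Rrm2b, Gadd45a and Zmat3, where 26.3% of the 13357 genes tested changed and 12.8% rose. BMS204352 raised 7, the same 4 with Cdkn1a, Bbc3 and Trp53inp1, where 22.7% changed and 11.3% rose. The median log2 difference of the 10 genes was 0.33 under NS11021 and 0.51 under BMS204352, against 0.00 over all tested genes in both. Both comparisons use the same 3 DMSO libraries, so the openers' differences from DMSO are not independent of each other. Summed leukocyte markers, mostly Cd68 and Lyz2, were at 20.1 to 20.7 CPM with NS11021 and 15.9 to 16.1 CPM with BMS204352. With DMSO they were at 10.3 to 11.2 CPM. Ptprc was at 0 in all 9 libraries and Cd3e at most at 1 count. Summed endothelial markers were at 172 to 179 and 161 to 171 CPM against 201 to 215 CPM. The part of either in these results was not tested.

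**Figure D2:**
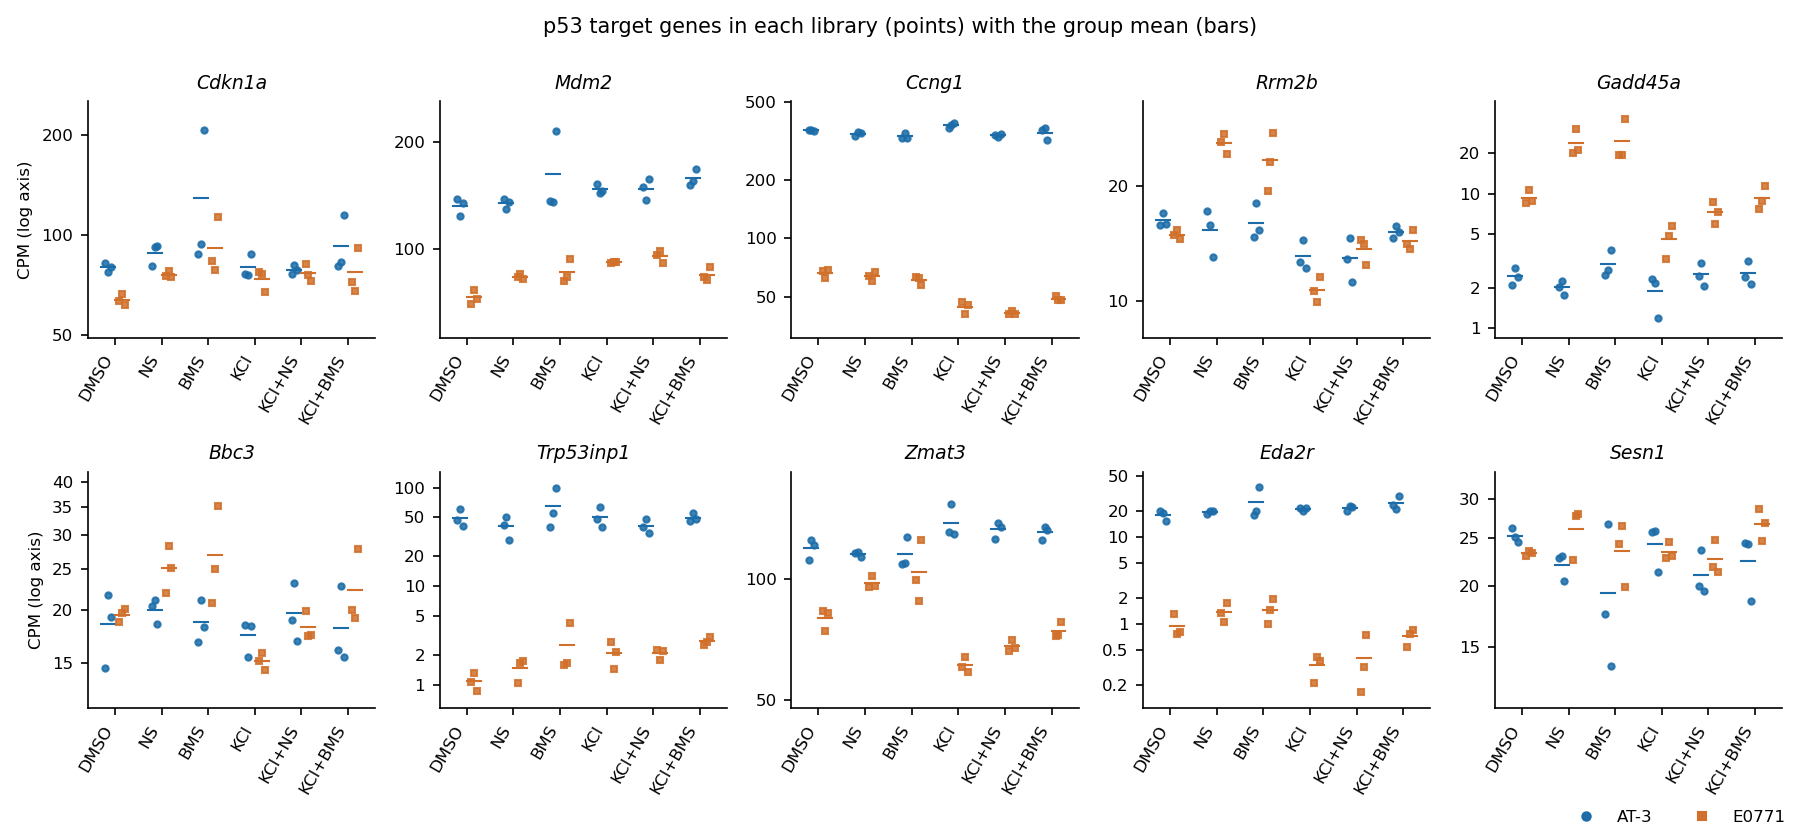
CPM of the p53 target genes in each library of both lines, by treatment, on log axes; points are libraries and short bars their means. NS stands for NS11021 and BMS for BMS204352. In E0771, Rrm2b and Gadd45a lie above DMSO under either opener and below it under KCl, and the replicate 3 library of BMS204352 is the highest of 18 for 7 of the genes.

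Gadd45a had the largest difference of the 10 under either opener, and Rrm2b the next largest under NS11021. Gadd45a was at 8.51, 10.7 and 8.80 CPM with DMSO, at 20, 30.2 and 21.2 CPM with NS11021 and at 19.4, 19.3 and 35.6 CPM with BMS204352. All treated libraries lay above all DMSO libraries. It rose 2.55-fold with NS11021 (1.35 ± 0.28, adjusted p = 0.00272) and 2.68-fold with BMS204352 (1.42 ± 0.28, adjusted p = 0.00246, edgeR's quasi-likelihood test in both). Rrm2b, the p53-induced small subunit of ribonucleotide reductase, which makes nucleotides for DNA repair, was at 14.9, 15.3 and 14.5 CPM with DMSO and at 26.1, 27.3 and 24.2 CPM with NS11021. With BMS204352 it was at 19.4, 23.1 and 27.4 CPM, again above every DMSO library. The rise was 1.73-fold with NS11021 (0.79 ± 0.10, adjusted p = 1.53e-06) and 1.57-fold with BMS204352 (0.65 ± 0.11, adjusted p = 4.17e-05). Of the exon bases of Gadd45a, 19.1% are shared with the opposite-strand gene E230016M11Rik, 8.04% of those of Rrm2b with Gm49085 and 7.68% of those of Cdkn1a with AC167363.2. The strand of the authors' counting is not given, so reads from these partners cannot be told apart.

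Mdm2 rose less, and evenly. It was at 69.8, 76.5 and 72.1 CPM with DMSO, 83.3, 84.7 and 82.2 CPM with NS11021 and 80.8, 83.3 and 93.5 CPM with BMS204352, with no overlap. It rose 1.14-fold with NS11021 (0.19, adjusted p = 0.00876) and 1.18-fold with BMS204352 (0.24, adjusted p = 0.00167). Zmat3 was at 83.2, 74.1 and 82.4 CPM with DMSO, 95.5, 102 and 96.1 CPM with NS11021 and 99.4, 88.5 and 125 CPM with BMS204352. It rose 1.22-fold (0.29 ± 0.089, adjusted p = 0.0211) and 1.31-fold (0.39 ± 0.089, adjusted p = 0.00356). With NS11021, Mdm2 did not pass without DMSO replicate 1 (adjusted p = 0.0550), and Zmat3 did not pass without DMSO replicate 2 or NS11021 replicate 2 (adjusted p = 0.0910 and 0.0870).

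Cdkn1a encodes p21, the inhibitor of cyclin-dependent kinases through which p53 stops the cell cycle. Its E0771 libraries were at 63.3, 66.3 and 61.4 CPM with DMSO, 75.3, 78.2 and 74.6 CPM with NS11021 and 83.8, 78.3 and 113 CPM with BMS204352. Every treated library lay above every DMSO library. Cdkn1a rose 1.45-fold with BMS204352 (0.54 ± 0.13, adjusted p = 0.00954). With NS11021 its log2 difference of 0.26 did not pass (adjusted p = 0.176), but it passed at almost the same size without the 3 libraries that stand apart (0.26, adjusted p = 0.0258).

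Of the death genes, Bbc3, which encodes PUMA, a BH3-only protein that triggers apoptosis at mitochondria, was at 18.8, 19.7 and 20.2 CPM with DMSO and at 20.8, 25.1 and 35.2 CPM with BMS204352. It rose 1.39-fold (0.48 ± 0.16, adjusted p = 0.0461). With NS11021 it was at 22.0, 28.3 and 25.2 CPM, above DMSO in each library, and its difference of 0.36 did not pass (adjusted p = 0.118). Without the 3 libraries that stand apart it did (adjusted p = 0.0113). Trp53inp1 was at 1.07, 1.32 and 0.865 CPM with DMSO and at 1.58, 1.67 and 4.26 CPM with BMS204352, from 30 to 180 counts per library over all E0771 groups. It rose 2.32-fold (1.22 ± 0.33, adjusted p = 0.00716). Eda2r (0.62, adjusted p = 0.317), Ccng1 (-0.12) and Sesn1 (0.02), whose product sestrin 1 restrains mTORC1 signalling, did not pass with BMS204352.

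The third E0771 library of BMS204352 carried much of this difference. It was the highest of the 18 E0771 libraries for Cdkn1a, Rrm2b, Gadd45a, Bbc3, Trp53inp1, Zmat3 and Eda2r and the lowest for Sesn1. Against the mean of the other 2 libraries of its group it was at 2.62 times for Trp53inp1, 1.84 times for Gadd45a and 1.40 times for Cdkn1a. Without the 3 libraries that stand apart, 5 genes rose: Cdkn1a (0.35, adjusted p = 0.0135), Mdm2 (0.18, adjusted p = 0.0197), Rrm2b (0.51, adjusted p = 0.000483), Gadd45a (1.06, adjusted p = 0.00374) and Zmat3 (0.24, adjusted p = 0.00496). Bbc3 (0.24, adjusted p = 0.207) and Trp53inp1 (0.58, adjusted p = 0.231) no longer passed. Bbc3 also missed the threshold without DMSO replicate 1, 2 or 3 or BMS204352 replicate 2 (adjusted p = 0.139, 0.111, 0.0937 and 0.0550). The share of counts from mitochondrial genes ran from 0.522% to 0.887% in this group and from 0.626% to 0.720% with DMSO, and its part in these results was not tested.

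The same replicate of BMS204352 stood out in AT-3. AT-3 BMS204352 replicate 3 was the highest of the 18 AT-3 libraries for Cdkn1a, Mdm2, Gadd45a, Trp53inp1 and Eda2r and the lowest for Sesn1. Cdkn1a was at 87.5, 94.3 and 207 CPM, so that replicate 3 was at 2.28 times the mean of the other 2 libraries, and Trp53inp1 at 40.1, 55.7 and 99.0 CPM, 2.07 times. Mdm2 was at 136, 135 and 213 CPM, 1.57 times, while Sesn1 was at 17.5, 26.6 and 13.7 CPM, 0.623 times. The ratio of Rrm2b and Zmat3 in E0771 was 1.29 and 1.34, and Sesn1 was again below the others at 0.784 times. Whether the 2 libraries of replicate 3 share a culture, day or batch is not stated.

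**Figure D3:**
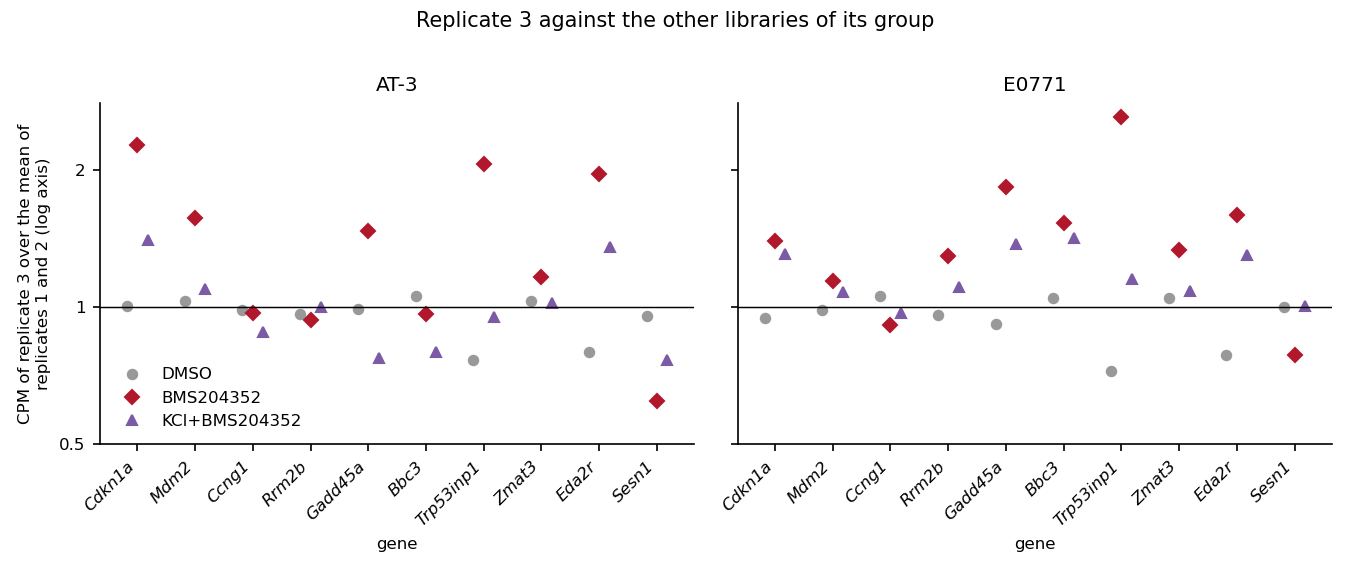
CPM of each p53 target gene in replicate 3 as a multiple of the mean of replicates 1 and 2, for DMSO, BMS204352 and KCl with BMS204352 in AT-3 and E0771, on a log axis. Under BMS204352, Trp53inp1, Cdkn1a, Eda2r and Gadd45a lie above 1 in both lines and Sesn1 below 1 in both.

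In AT-3 none of the 10 genes passed in any of the 9 comparisons made in that line by edgeR's quasi-likelihood test, and none by DESeq2. Under other settings, given with the processing below, up to 2 passed for BMS204352 against DMSO and up to 1 in some other comparisons. The share of all 14772 tested genes that changed was 0.0745% with NS11021, 5.27% with BMS204352, 4.83% with KCl, 5.03% with KCl and NS11021 and 13.1% with KCl and BMS204352, and for the remaining comparisons 0.0203% (KCl with NS11021 against KCl), 1.24% (KCl with BMS204352 against KCl), 2.94% (BMS204352 against NS11021) and 0% (the interaction). At an unadjusted p below 0.05 there were 0, 4, 2, 2, 0, 1, 1, 2 and 0 of the 10, in the same order. Of all 14772 tested genes, 1129, 3203, 2608, 2774, 4054, 549, 2408, 2677 and 533 were below that p, again in this order. The log2 differences from DMSO ran from -0.38 to 0.71.

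The 4 genes with an unadjusted p below 0.05 under BMS204352 in AT-3 were Cdkn1a (0.71 ± 0.27, 95% interval 0.14 to 1.29, adjusted p = 0.136), Eda2r (0.49, adjusted p = 0.210), Sesn1 (-0.38, adjusted p = 0.185) and Mdm2 (0.31, adjusted p = 0.195). Cdkn1a did not overlap DMSO (82.2, 77.4 and 80.2 CPM), and Mdm2, Eda2r and Sesn1 did. Which of these passed turned on single libraries. Without BMS204352 replicate 1, Cdkn1a (0.93, adjusted p = 0.0366) and Eda2r (0.67, adjusted p = 0.0432) rose. Without BMS204352 replicate 2, Sesn1 fell by 0.67 (adjusted p = 0.00746). With KCl, Rrm2b (-0.30, adjusted p = 0.153) and Zmat3 (0.22, adjusted p = 0.105) came nearest to the threshold, and neither overlapped DMSO. Ccng1 was at 360, 362 and 355 CPM with DMSO and at 369, 381 and 393 CPM with KCl (0.09, 95% interval -0.01 to 0.20). Its intervals are the narrowest here. Over all tested genes, and not for Ccng1 itself, the fit's common coefficient of variation between replicates was 0.116 in AT-3 against 0.0707 in E0771.

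KCl alone moved the E0771 profile in both directions. It raised Mdm2 and Trp53inp1 and lowered Ccng1, Rrm2b, Gadd45a, Zmat3 and Eda2r, 7 of 10, where 36.4% of all tested genes changed (17.8% rose and 18.6% fell). The median over the 10 genes was -0.37, against -0.01 over all genes. Cdkn1a (0.22, adjusted p = 0.214), Bbc3 (-0.35, adjusted p = 0.116) and Sesn1 (0.02, adjusted p = 0.90) did not pass. Without the 3 libraries that stand apart, none of which is in this comparison, Cdkn1a rose (0.22, adjusted p = 0.0442) and Bbc3 fell by 0.35 (adjusted p = 0.0146). Summed endothelial markers were at 292 to 296 CPM with KCl against 201 to 215 CPM with DMSO, and summed epithelial markers at 158 to 167 CPM against 202 to 207 CPM. The part of either in these results was not tested.

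The feedback gene Mdm2 was at 91.3, 91.8 and 91.5 CPM with KCl, above the DMSO libraries (69.8, 76.5 and 72.1 CPM). It rose 1.27-fold (0.34 ± 0.055, 95% interval 0.23 to 0.45, edgeR's quasi-likelihood adjusted p = 9.68e-06). Ccng1, by contrast, was at 47.2, 41.0 and 45.5 CPM with KCl against 68.1, 62.8 and 69.1 CPM, and fell 1.48-fold (-0.57 ± 0.062, adjusted p = 1.05e-08). Both genes kept their calls in every alternative that was run. Ccng1 did not pass with either opener alone.

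The repair genes that the openers raised were lower with KCl. Rrm2b was at 10.6, 9.93 and 11.5 CPM, all below DMSO, and was 1.38-fold lower (-0.46 ± 0.11, adjusted p = 0.00105). Gadd45a was at 3.25, 4.82 and 5.71 CPM against 8.51, 10.7 and 8.80 CPM, 2.01-fold lower (-1.01 ± 0.30, adjusted p = 0.0187). Zmat3 was at 60.4, 63.8 and 58.7 CPM, 1.3-fold lower (-0.38 ± 0.090, adjusted p = 0.00249). Gadd45a did not pass without KCl replicate 1 or DMSO replicate 2 (adjusted p = 0.0813 and 0.0673).

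The 2 members near the floor of E0771 moved apart. Eda2r was at 0.212, 0.419 and 0.377 CPM with KCl, from 8 to 16 counts, against 1.29, 0.763 and 0.807 CPM with DMSO, from 28 to 53 counts, and was 2.82-fold lower (-1.50 ± 0.47, adjusted p = 0.0122). Trp53inp1 was at 2.70, 1.44 and 2.17 CPM and 1.95-fold higher (0.96 ± 0.33, adjusted p = 0.0220). Neither overlapped DMSO. Eda2r did not pass without DMSO replicate 1 or KCl replicate 1 (adjusted p = 0.0793 and 0.0666), nor Trp53inp1 when replicate 1 or 3 of DMSO (adjusted p = 0.0620 and 0.0898) or of KCl (0.132 and 0.0539) was left out.

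**Figure D4:**
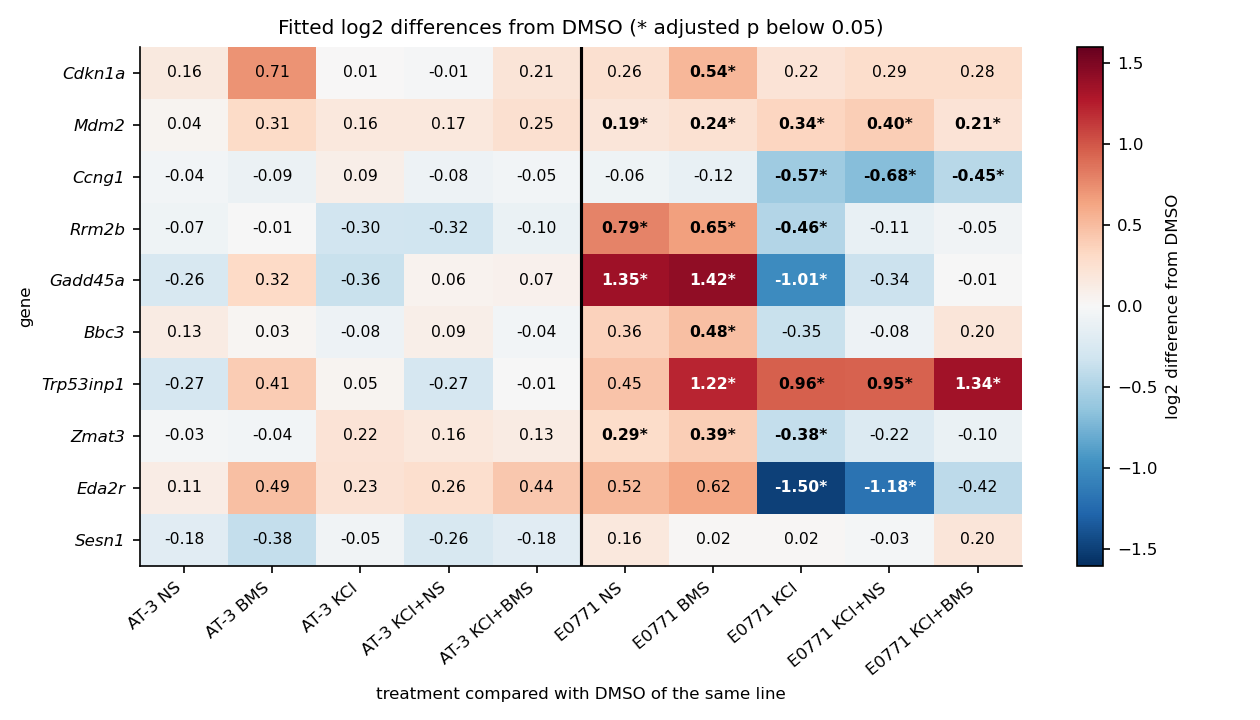
Fitted log2 difference from DMSO of each p53 target gene (lines of the grid) under each treatment of AT-3 and E0771 (columns), by colour and number; bold numbers with an asterisk passed the threshold. No AT-3 cell has an asterisk, and in E0771 Gadd45a, Rrm2b and Zmat3 are above 0 under the openers and below 0 under KCl.

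When an opener was added to KCl in E0771, Mdm2, Ccng1 and Trp53inp1 passed against DMSO with either opener, in the direction they had with KCl alone. These comparisons share the DMSO libraries. With KCl and NS11021, 4 of 10 genes differed from DMSO, where 38.6% of all tested genes changed (19.6% rose and 19% fell). Mdm2, at 96.2, 98.6 and 90.9 CPM, rose 1.32-fold (0.40, adjusted p = 7.4e-07) and Trp53inp1 1.93-fold (0.95, adjusted p = 0.0235). Ccng1, at 41.0, 42.3 and 40.7 CPM, fell 1.6-fold (-0.68, adjusted p = 3.53e-10), and Eda2r, at 0.166, 0.320 and 0.744 CPM, 2.26-fold (-1.18, adjusted p = 0.0417). Eda2r passed with every library in place but not without DMSO replicate 1 or 3 or replicate 1 or 2 of the treated group (adjusted p = 0.196, 0.0542, 0.218 and 0.134). Trp53inp1 did not pass without replicate 1 or 3 of either group (adjusted p from 0.0634 to 0.0940), while Zmat3 passed without DMSO replicate 2 (-0.28, adjusted p = 0.0346).

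With KCl and BMS204352, 3 of 10 differed from DMSO, where 28.6% of all tested genes changed (14% rose and 14.6% fell). Mdm2, at 83.2, 81.4 and 88.7 CPM, rose 1.16-fold (0.21, adjusted p = 0.00364). Trp53inp1, at 2.52, 2.75 and 3.03 CPM, rose 2.53-fold (1.34, adjusted p = 0.00213). Ccng1, at 50.7, 48.1 and 48.0 CPM, fell 1.36-fold (-0.45, adjusted p = 1.63e-06). Gadd45a (7.67, 8.73 and 11.3 CPM), Rrm2b (14.1, 13.7 and 15.3 CPM) and Zmat3 (72.1, 72.5 and 78.4 CPM) lay near DMSO, with log2 differences of -0.01, -0.05 and -0.10. Mitochondrial genes took 0.789% to 1.03% of counts in these libraries, above the 0.626% to 0.720% of DMSO, and their summed epithelial markers were at 140 to 161 CPM against 202 to 207 CPM. The part of either in these results was not tested.

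Set against KCl alone in E0771, Rrm2b rose with either opener. Adding NS11021 raised 1 of 10 genes, Rrm2b (14.4, 14.1 and 12.5 CPM, 1.28-fold, log2 0.35, adjusted p = 0.0257), where 17.2% of tested genes changed and 9.59% rose. It did not pass without replicate 1 or 2 of either group (adjusted p from 0.0749 to 0.119). Adding BMS204352 raised 4: Rrm2b 1.33-fold (0.41, adjusted p = 0.00682), Gadd45a 1.99-fold (0.99, adjusted p = 0.0344), Bbc3 1.47-fold (0.55, adjusted p = 0.0281) and Zmat3 1.21-fold (0.28, adjusted p = 0.0382), where 19.9% changed and 9.85% rose. None of the 4 overlapped KCl in its libraries, but 8 of the 10 genes did not overlap it, passed or not. The share of all genes without overlap was not counted, so this count is no result about the 10. Bbc3, for one, was at 20.1, 19.2 and 27.9 CPM against 15.2, 15.9 and 14.5 CPM. Of the 4 raised genes, only Rrm2b passed in all 6 fits that left out 1 library. Zmat3 passed in none of them (adjusted p from 0.0588 to 0.156), Gadd45a did not pass without KCl replicate 1 or 2 or replicate 2 or 3 of the combination (adjusted p from 0.0636 to 0.141), and Bbc3 did not pass without KCl replicate 1, 2 or 3 or replicate 3 of the combination (adjusted p from 0.0662 to 0.140).

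The test of whether the effect of BMS204352 differed with KCl passed for 1 of the 10 genes in E0771, Mdm2, where 1.62% of tested genes passed and 1.06% were negative. BMS204352 differed from DMSO by 0.24 for Mdm2 without KCl and by -0.13 from KCl in its presence, an interaction of -0.37 ± 0.078 (adjusted p = 0.00992). It passed without the 3 libraries that stand apart too (-0.30, adjusted p = 0.0155). For Cdkn1a the interaction was -0.48 (95% interval -0.87 to -0.08, adjusted p = 0.276), and for Gadd45a -0.43 (95% interval -1.31 to 0.46).

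The openers were given at the same dose and time, and can be compared directly over the 10 genes in each line. In E0771 none of the 10 differed between BMS204352 and NS11021 by edgeR's quasi-likelihood test or DESeq2, where 1.76% of tested genes differed. At an unadjusted p below 0.05, where 1734 of all 13357 tested genes lay, there were 2 of the 10. These were Trp53inp1 (0.76 higher with BMS204352, 95% interval 0.12 to 1.41, adjusted p = 0.275) and Cdkn1a (0.28, interval 0.00 to 0.56, adjusted p = 0.381). The interval of the difference was -0.06 to 0.16 for Mdm2, -0.35 to 0.07 for Rrm2b, -0.50 to 0.63 for Gadd45a and -0.74 to 0.92 for Eda2r. The interval is wide to both sides for Gadd45a and Eda2r and narrow for Mdm2, and a p that misses the threshold does not show that the compounds act alike. In AT-3 the widest differences were for Trp53inp1 (0.68, interval 0.01 to 1.35), Gadd45a (0.58, interval 0.03 to 1.13) and Cdkn1a (0.56, interval -0.02 to 1.13), and these were not past the threshold (adjusted p = 0.266, 0.246 and 0.293). Without BMS204352 replicate 2, AT-3 Sesn1 was lower with BMS204352 than with NS11021 (-0.48, adjusted p = 0.0447).

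The difference between the lines in each effect was tested over all 36 libraries. For KCl, 3 of 10 genes differed, all lower in E0771, where 9.13% of all tested genes differed (5.02% lower). Ccng1 fell in E0771 and not in AT-3, a line difference of -0.67 ± 0.073 (adjusted p = 9.19e-08). Zmat3 differed by -0.61 ± 0.12 (adjusted p = 0.00102) and Eda2r by -1.74 ± 0.51 (adjusted p = 0.0261). The Eda2r difference did not pass without E0771 DMSO replicate 1, E0771 KCl replicate 1 or 3 or AT-3 DMSO replicate 3 (adjusted p = 0.136, 0.111, 0.0549 and 0.0545). For Mdm2 the effect of KCl did not differ detectably between the lines (0.17, 95% interval -0.14 to 0.47).

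For NS11021, 2 of 10 genes responded more in E0771, where 3.99% of tested genes differed (1.49% higher). They were Rrm2b, by 0.85 ± 0.16 (adjusted p = 0.00156), and Gadd45a, by 1.61 ± 0.37 (adjusted p = 0.00937). For BMS204352, Rrm2b (0.66 ± 0.16, adjusted p = 0.0100) and Zmat3 (0.43 ± 0.12, adjusted p = 0.0310) did, where 5.01% differed (1.89% higher). Without the 3 libraries that stand apart, Zmat3 passed (0.37, adjusted p = 0.0229) and Rrm2b did not (0.51, adjusted p = 0.0902). Rrm2b also missed the threshold without E0771 BMS204352 replicate 3 alone (0.53, adjusted p = 0.0509). Zmat3 did not pass without replicate 2 of AT-3 DMSO, E0771 DMSO or AT-3 BMS204352 or replicate 3 of AT-3 DMSO or E0771 BMS204352 (adjusted p from 0.0644 to 0.131). The Gadd45a difference was 1.09 (95% interval 0.36 to 1.82, adjusted p = 0.0703), and it passed without E0771 BMS204352 replicate 1 or 2 or AT-3 BMS204352 replicate 3 (adjusted p = 0.0450, 0.0403 and 0.0426). Sesn1 passed without AT-3 BMS204352 replicate 2 (0.69, adjusted p = 0.00988).

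**Figure D5:**
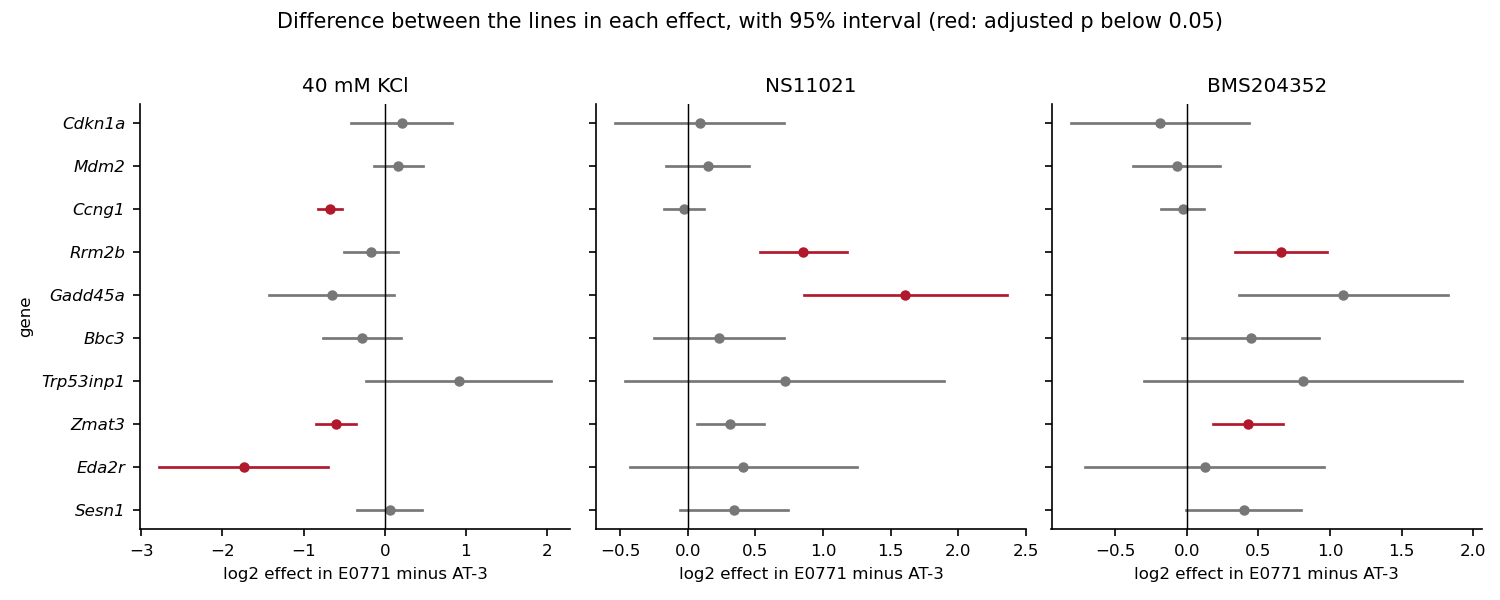
Effect of each treatment in E0771 minus its effect in AT-3, as log2 difference with 95% intervals, for the p53 target genes; points are the fitted values and red ones passed the threshold. Ccng1, Zmat3 and Eda2r lie below 0 for KCl, and Rrm2b lies above 0 for both openers.

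Upstream of the targets, Trp53 RNA passed as lower, not higher, in 2 of the 10 comparisons with DMSO. In E0771 it was at 258, 259 and 249 CPM with DMSO and at 212, 207 and 208 CPM with NS11021, and fell by 0.29 on the log2 scale (adjusted p = 0.0174). That did not pass without DMSO replicate 1 or 2 or NS11021 replicate 2 or 3 (adjusted p from 0.0564 to 0.0637). With BMS204352 it was at 207, 194 and 269 CPM (-0.19, adjusted p = 0.127), and without replicate 3 it fell by 0.35 (adjusted p = 3.64e-07). With KCl and NS11021 it fell by 0.24 (adjusted p = 0.0317), but passed in none of the 6 fits that left out 1 library (adjusted p from 0.0547 to 0.0872). Mdm4 rose with NS11021 (0.22, adjusted p = 0.0155), with BMS204352 (0.27, adjusted p = 0.00471) and with KCl and BMS204352 (0.20, adjusted p = 0.0299). Mdm4 did not pass with NS11021 without DMSO replicate 1 or 3 (adjusted p = 0.0517 and 0.050), with BMS204352 without its replicate 3 (adjusted p = 0.0596), or with the combination without DMSO replicate 1 or 3 or any one replicate of the combination (adjusted p from 0.0533 to 0.0908). In AT-3 neither Trp53 nor Mdm4 passed against DMSO with all libraries; without the 3 that stand apart, Trp53 rose with KCl (0.18, adjusted p = 0.0283) and with KCl and NS11021 (0.19, adjusted p = 0.0141). Trp53 there came nearest with BMS204352 (-0.23, adjusted p = 0.0659), and passed without replicate 1 of that group (-0.28, adjusted p = 0.0235).

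A longer list held 44 other p53 targets. In E0771, 41 of them were tested: 8 rose and 7 fell with NS11021, 9 and 5 with BMS204352, 9 and 10 with KCl, 11 and 11 with KCl and NS11021 and 5 and 10 with KCl and BMS204352. Of all tested genes, 26.3%, 22.7%, 36.4%, 38.6% and 28.6% changed, in the same order. The median log2 difference of the list was 0.05, -0.04, -0.02, -0.05 and 0.00, against 0.00, 0.00, -0.01, 0.00 and 0.00 over all genes. Fdxr, a mitochondrial ferredoxin reductase, rose with NS11021 (0.53, adjusted p = 0.000101) and with BMS204352 (0.55, adjusted p = 9.99e-05), and Gdf15, a secreted stress hormone, rose 3.27-fold with NS11021 (adjusted p = 0.000815). Tap1, a peptide transporter of antigen presentation, fell with KCl (-0.81, adjusted p = 1.17e-09). The 15 calls with NS11021 became 9 without DMSO replicate 1 or NS11021 replicate 2 or 3, and the 14 with BMS204352 became 9 without DMSO replicate 1 or BMS204352 replicate 3.

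In AT-3, 43 of the list were tested, and 7 rose and 2 fell with BMS204352, where 5.27% of all tested genes changed. With KCl and BMS204352 also 7 rose and 2 fell, where 13.1% changed. The list medians were 0.00 and 0.03, against 0.00 and 0.01 over all genes. The other 3 treatments gave 0 or 1 call, where 0.0745% (NS11021), 4.83% (KCl) and 5.03% (KCl with NS11021) changed. The 1 call with KCl became 5 without the 3 libraries that stand apart and 4 with the replicate block or with only the libraries compared. The 1 with KCl and NS11021 became 9, 5 and 6 under these, and the 0 with NS11021 became 1 with the block. With BMS204352, Gdf15 rose 2.22-fold (adjusted p = 0.0163), Plk3 by 0.62 and the antiproliferative gene Btg2 by 0.55, while the death receptor gene Fas fell by 0.68 and Apaf1, a core protein of the apoptosome, by 0.32. These 9 calls became 2 without DMSO replicate 1 or BMS204352 replicate 3, 3 without DMSO replicate 2 and 1 without DMSO replicate 3. They became 14 without BMS204352 replicate 1, 3 without the 3 libraries that stand apart and 0 with only the libraries compared. With KCl and BMS204352 the 9 calls became 5 without DMSO replicate 1 or 2 or replicate 2 of that group, 2 without DMSO replicate 3 and 3 without replicate 3 of that group.

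Under DMSO, 38 of the 44 targets differed between the lines, 17 higher and 21 lower in E0771, where 74.5% of all tested genes differed (34.1% higher and 40.4% lower). Perp, an apoptosis-linked membrane protein of epithelial junctions, was at 433 ± 27.7 CPM in AT-3 (SD, n = 3) and had 0 counts in E0771 DMSO, at least 16583-fold lower against a floor of 3 counts over the summed E0771 DMSO libraries. Of the 24 pathway regulators, 6 were higher and 13 lower in E0771, against the same shares. Cdkn2a, which encodes ARF, the protein that holds MDM2 off p53, and the kinase inhibitor p16, was at 28.0, 28.0 and 27.2 CPM in AT-3 DMSO. It had 0 counts in all 18 E0771 libraries, at least 1062-fold lower by the same floor. Trp63, a p53 relative of basal epithelium, was at 71.9 ± 3.90 CPM in AT-3 and 0 counts in E0771 DMSO, at least 2755-fold lower. In E0771, 21 of the regulators were tested: 4 rose and 3 fell with NS11021, 4 and 0 with BMS204352 and 3 and 3 with KCl. Of all tested genes, 26.3%, 22.7% and 36.4% changed, in the same order. The list medians were -0.06, 0.04 and 0.05. Among these regulators Hipk2, a kinase that phosphorylates p53, rose with NS11021 (0.51) and BMS204352 (0.70, 1.62-fold) and fell with KCl (-0.72). The list as a whole did not follow it.

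Across libraries, some members followed each other. Over the 18 E0771 libraries, Pearson's r of log2 CPM was 0.962 for Rrm2b with Gadd45a, 0.937 for Gadd45a with Zmat3 and 0.919 for Rrm2b with Zmat3. Mdm2 and Ccng1 ran opposite each other, with r = -0.791. Leaving out replicate 3 of BMS204352 and of KCl with BMS204352 left 16 libraries and r of 0.959, 0.924, 0.915 and -0.842. These libraries share treatments in groups of 3, so the values describe the pattern over groups. In AT-3 the highest were Mdm2 with Eda2r, at 0.869, and Cdkn1a with Eda2r, at 0.807, which became 0.532 and -0.0613 over the 16 libraries, so the second rests on those 2.

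Other genes with a profile like that of Cdkn1a or Mdm2 were sought among all genes whose mean log2 CPM was 2 or more. In E0771 the 3 most like Cdkn1a were Lonp1, Ero1l and Ghitm (r = 0.959, 0.937 and 0.908 over 18 libraries), and the 3 most like Mdm2 were Akr1b8, Tsg101 and Ncoa7 (0.914, 0.903 and 0.901). Over 16 libraries these were 0.894, 0.837 and 0.779 and 0.936, 0.962 and 0.903. In AT-3, Anxa8, Myadm and Tspo were most like Cdkn1a (0.965, 0.960 and 0.959, and 0.750, 0.822 and 0.725 over 16 libraries), and Tes, Inhba and Hmga2 most like Mdm2 (0.936, 0.925 and 0.922, and 0.745, 0.768 and 0.679).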

How the data were processed

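The authors deposited a table of whole read counts. The submitters' processing notes name STAR, featureCounts and GRCm38; their versions and the strand setting were not given in the sources used here. Per the labels' protocols, RNA came from Qiagen RNeasy columns and libraries from the Universal Plus mRNA kit of NuGen. The deposited counts held 32287 IDs, of which 2 of human form (6 counts) were left out; 127 IDs had no symbol (0.0415% of counts). All 36 columns matched a sample title. Among counts of 1 to 10, 84.5% were even, so halved counts were an alternative. Genes were kept with filterByExpr (minimum count 10, minimum total 15) and scaled by the trimmed mean of M-values. The quasi-likelihood test (edgeR 4.0.16, robust, R 4.3.3) was fitted to the 18 libraries of a line, or to all 36 for line differences, in 22 comparisons. DESeq2 1.42.0, other filters and scalings, a replicate block and 60 fits that left out 1 library were alternatives, and the fit was tested on simulated counts. All 10 members passed the filter in every fit. Gene lengths and positions are from GENCODE vM21. Named genes are all members with Trp53 and Mdm4, and, of each list, up to 3 genes past the threshold in each direction with the smallest adjusted p, of which the printed examples were picked after their values were seen. The members and lists were chosen with earlier results of these data known.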

Additional observations from a re-analysis of the deposited data

Results flagged for a closer look

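For 6 of the 10 p53 target genes, and for Mdm4, an effect differed between the lines or with KCl by a test of the difference itself (edgeR's quasi-likelihood test, Benjamini-Hochberg over all tested genes). With KCl, the effect in E0771 minus that in AT-3 was -0.67 for Ccng1, -0.61 for Zmat3 and -1.74 for Eda2r, in log2 units. With NS11021 it was 0.85 for Rrm2b, 1.61 for Gadd45a and 0.33 for Mdm4, the last at an adjusted p of 0.030 that was not reached without E0771 DMSO replicate 1 or 3 or AT-3 DMSO replicate 2 (adjusted p = 0.0549, 0.0543 and 0.0831). With BMS204352 it was 0.66 for Rrm2b and 0.43 for Zmat3. Leaving out single libraries also cost Eda2r with KCl (adjusted p up to 0.136) and Zmat3 with BMS204352 (up to 0.131). Rrm2b with BMS204352 was lost without E0771 BMS204352 replicate 3 (adjusted p = 0.0509). Of all tested genes, 9.13%, 3.99% and 5.01% differed between the lines with KCl, NS11021 and BMS204352, and 1.62% passed for the interaction in E0771. Within E0771, the effect of BMS204352 on Mdm2 differed with KCl by -0.37.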

How the results depend on the processing

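Of the 44 calls of the 10 genes, 27 held in every alternative and 17 were lost in at least 1; of 176 that did not pass, 153 passed in none; 0 reversed. Without the 3 libraries that stand apart, the number of the 10 genes past the threshold went from 0 to 1 for KCl (Zmat3 0.21, adjusted p = 0.0246), for KCl with NS11021 (Mdm2 0.17, adjusted p = 0.0487) and for KCl with BMS204352 (Mdm2 0.19, adjusted p = 0.0417) against DMSO in AT-3, from 1 to 2 for KCl with NS11021 against KCl in E0771, and from 2 to 1 for the line difference with BMS204352. With only the libraries compared, it went from 0 to 1 for KCl with BMS204352 in AT-3, from 7 to 4 for BMS204352 in E0771, from 1 to 4 for KCl with NS11021 against KCl in E0771 and from 2 to 0 for the line difference with BMS204352. Leaving out 1 library at a time gave 0 to 2 for AT-3 BMS204352 against DMSO, 0 to 1 for AT-3 BMS204352 against NS11021, and in E0771 4 to 7 for KCl, 2 to 5 for KCl with NS11021, 0 to 1 for KCl with NS11021 against KCl and 1 to 3 for KCl with BMS204352 against KCl. It gave 0 to 3 for the line difference with BMS204352. The cause of these changes was not tested.

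With the replicate block, 1 gene passed in AT-3 for KCl (Zmat3), BMS204352 (Sesn1) and KCl with NS11021 (Rrm2b), against 0 without it, and all other counts of the 10 genes stayed within 1.5 times. Nothing in the labels makes the number a pairing. The deviations of same-numbered libraries from their group means had median correlations of 0.154, 0.250 and 0.166 in AT-3, against -0.0767 between different numbers, and of 0.0905, -0.00293 and 0.0444 in E0771, against -0.020. Single pairs went as low as -0.0991 and -0.128. The main fit did not take the numbers as pairs, because the labels do not, and the low pairs do not settle the question. Of the libraries, 17 of 18 AT-3 and 16 of 18 E0771 libraries correlated best with libraries of their own number, a hint that the main fit does not use. With the block, AT-3 calls over all genes went from 714 to 1124 for KCl and from 779 to 1455 for BMS204352. In E0771 they went from 4860 to 5060 for KCl and from 3028 to 3314 for BMS204352.

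Over all tested genes, 14 of 22 counts moved by over 1.5 times in some alternative. In AT-3 they were 714 for KCl (393 to 1345), 11 for NS11021 (0 to 146), 779 for BMS204352 (10 to 1743), 743 for KCl with NS11021 (365 to 1611), 1941 for KCl with BMS204352 (893 to 2710), 3 (0 to 39) and 183 (20 to 620) for NS11021 and BMS204352 added to KCl, 434 for BMS204352 against NS11021 (14 to 1070) and 0 for the interaction (0 to 6, with 533 at an unadjusted p below 0.05). In E0771 they were 2663 for KCl with BMS204352 against KCl (1759 to 3240), 235 for BMS204352 against NS11021 (0 to 419) and 217 for the interaction (83 to 415). The line differences gave 637 for NS11021 (270 to 1172) and 800 for BMS204352 (141 to 1313). Depth limits Eda2r and Trp53inp1 in E0771, with 6 to 84 and 30 to 180 counts in a library.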

Other observations

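Lists of genes next to the p53 pathway gave these counts, in the same fits. Of 30 genes that p53 represses through p21 and the DREAM complex, which silences cell cycle genes, 1 rose and 9 fell with NS11021 in E0771, 0 rose and 14 fell with BMS204352, and 1 rose and 17 fell with KCl and BMS204352. Of all tested genes, 26.3%, 22.7% and 28.6% changed in these comparisons. The median log2 differences were -0.10, -0.15 and -0.15, against 0.00 over all genes. With KCl and NS11021, 1 rose and 14 fell, where 38.6% changed. With KCl alone, 4 rose and 3 fell with a median of -0.01, where 36.4% changed; these 7 calls became 15 with only the libraries compared and 4 without KCl replicate 1 or DMSO replicate 3. Mcm5, a replication helicase subunit, fell by 0.31 and Kif23, a kinesin of cytokinesis, by 0.28 with BMS204352. In AT-3, KCl with BMS204352 lowered 20 and raised 0, where 13.1% of all tested genes changed, with a median of -0.36: Ccna2, a cyclin of DNA replication, fell by 0.55, and 6 of the 20 calls were left without replicate 3 of that group. Without its replicate 2, DMSO replicate 1 or DMSO replicate 3, there were 10.

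Of the integrated stress response genes, which ATF4 drives when amino acids or protein folding fail, 15 of 25 rose and 0 fell with BMS204352 in AT-3, where 5.27% of all tested genes changed, with a median of 0.71. Chac1, which degrades glutathione, rose by 1.05 and the amino acid transporter gene Slc7a5 by 0.62. The 15 calls became 6 without DMSO replicate 1 and 3 without DMSO replicate 3, and with only the libraries compared there were 0. In E0771, where 22 were tested, 10 rose and 2 fell with NS11021, 11 and 2 with BMS204352, and 2 and 9 with KCl, where Slc7a5 fell by 0.72 and Asns, the asparagine synthetase, by 0.47. Of all tested genes, 26.3%, 22.7% and 36.4% changed there, and the 13 calls with BMS204352 became 7 with only the libraries compared. Gadd45b and Gadd45g, of the same family as Gadd45a, fell by 1.03 and 0.64 with BMS204352 in E0771.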
